A study of Mus musculus with 12 samples.

Results

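The left ventricles of CnAb1 transgenic mice were compared with those of wild-type mice after both had carried an aortic band for 21 days. The comparison used 6 of the 12 arrays of the study, the 3 titled transgenic TAC and the 3 titled control TAC. TAC, transverse aortic constriction, is an operation that places a band around the aorta, so that the left ventricle pumps against a raised pressure. All mice were C57/Bl6. The transgenic group overexpressed CnAb1, a splicing variant of the catalytic subunit of calcineurin A beta; the labels do not give the promoter or the cell type that drives it, nor how many lines were used. The other 6 arrays, 3 of transgenic and 3 of wild-type hearts after a sham operation, served to estimate the spread and to test whether a genotype difference differed between banded and unbanded hearts; they were also taken 21 days after surgery, although their separate time label reads 0. Nothing in the labels ties an array to an animal of its own, and the p-values therefore cover only the differences among these arrays, which may be technical.

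Calcineurin is a calcium-activated phosphatase. In heart muscle it dephosphorylates NFAT transcription factors, which enter the nucleus and drive hypertrophic growth, and the inhibitor Rcan1 is transcribed in return as a feedback signal. The CnAb1 variant has a different C-terminal end from the other calcineurin A forms and has been linked to Akt and mTOR signalling. Under pressure overload, ventricles enlarge, return to a fetal pattern of genes such as the natriuretic peptides, deposit collagen and other matrix proteins, and lose enzymes of fatty acid oxidation.

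On the 6 TAC arrays 27570 to 30830 of 39429 probes (69.9% to 78.2%) stood well above background, so no TAC array stood apart in this respect; transgenic sham array 2 had fewer, 14672 (37.2%). A level is given as the log2 signal of a gene's brightest probe relative to the 75th percentile of its array, and a difference as transgenic TAC minus wild-type TAC on that scale, ± standard error, with 3 arrays in each group. Levels of different genes cannot be set against each other. P-values are from limma, fitted over all 12 arrays and adjusted by the Benjamini-Hochberg method over 25321 genes, and a gene passed at an adjusted p under 0.05. The slides that carried the arrays, as the file headers give them, were a batch that partly followed genotype. Transgenic TAC arrays 1 and 2 were on slide 4 and wild-type TAC array 2 was on slide 3, while transgenic TAC array 3 and wild-type TAC arrays 1 and 3 shared slide 2, which gives the within-slide differences below.

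Banded transgenic hearts had much lower levels of extracellular matrix genes than banded wild-type hearts, lower levels of some stress genes of the muscle cell, and slightly higher levels of genes of fatty acid oxidation and respiration, few of which passed singly. A separate set of 62 genes was higher in transgenic hearts both after TAC and after sham, by 0.50 to 6.66 on the log2 scale after TAC. In all, 1027 of 25321 genes (4.06%) passed, 485 higher (1.92%) and 542 lower (2.14%) in transgenic hearts; 424 of them differed by over 2-fold, 190 higher and 234 lower. The median difference over all genes was 0.02. Without the filter that keeps probes well above background on at least 3 arrays, 388 of 39429 non-control probes (0.984%) passed. The count rested on every TAC array but 1 and on the wild-type sham arrays: it was 174, 284 and 464 without transgenic TAC array 1, 2 or 3, 271 and 194 without wild-type TAC array 1 or 3, and 443, 638 and 578 without wild-type sham array 1, 2 or 3. With slide as a fixed block 11 genes passed, all higher in transgenic hearts, 6 of which are named below. Scaling by each array's median in place of the 75th percentile left 457 genes, of which 57.3% were higher, against 47.2% here, and background correction by normexp left 42 and moved the median of all genes to -0.15.

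**Figure D1:**
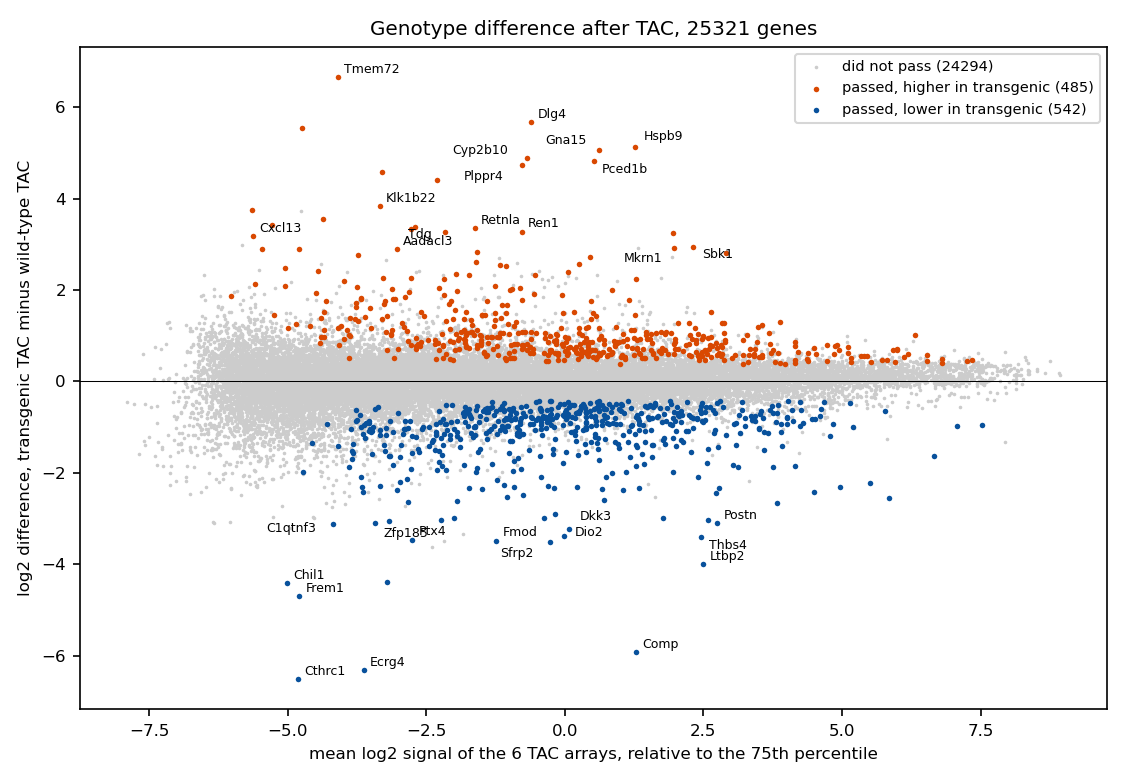
Log2 difference between transgenic and wild-type TAC hearts (vertical axis) against the mean log2 signal of the 6 TAC arrays (horizontal axis) for each of 25321 genes. The 485 genes that passed as higher are orange, the 542 that passed as lower are blue, and the 15 largest named differences in each direction are labelled; Tmem72 lies highest at 6.66 and Cthrc1 lowest at -6.51.

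Matrix genes made up the clearest group. Of 48 measured extracellular matrix genes 35 were lower in transgenic hearts (72.9%, against 2.14% of all genes), 0 were higher and 13 did not pass; 31 of the 35 were over 2-fold lower. Their median difference was -1.59, all 48 lay below 0, and for 44 of them the 3 transgenic arrays lay below the 3 wild-type arrays (91.7%, against 14.9% of all genes). The median was -1.81 within slide 2 and -1.75 with slide as a fixed block, where 0 of the 48 passed. Fewer members passed without transgenic TAC array 1 (18), transgenic TAC array 3 (23) or wild-type TAC array 3 (22), and with normexp (14). Because these are pieces of ventricle, fewer cells that make matrix and less RNA per such cell cannot be told apart.

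**Figure D2:**
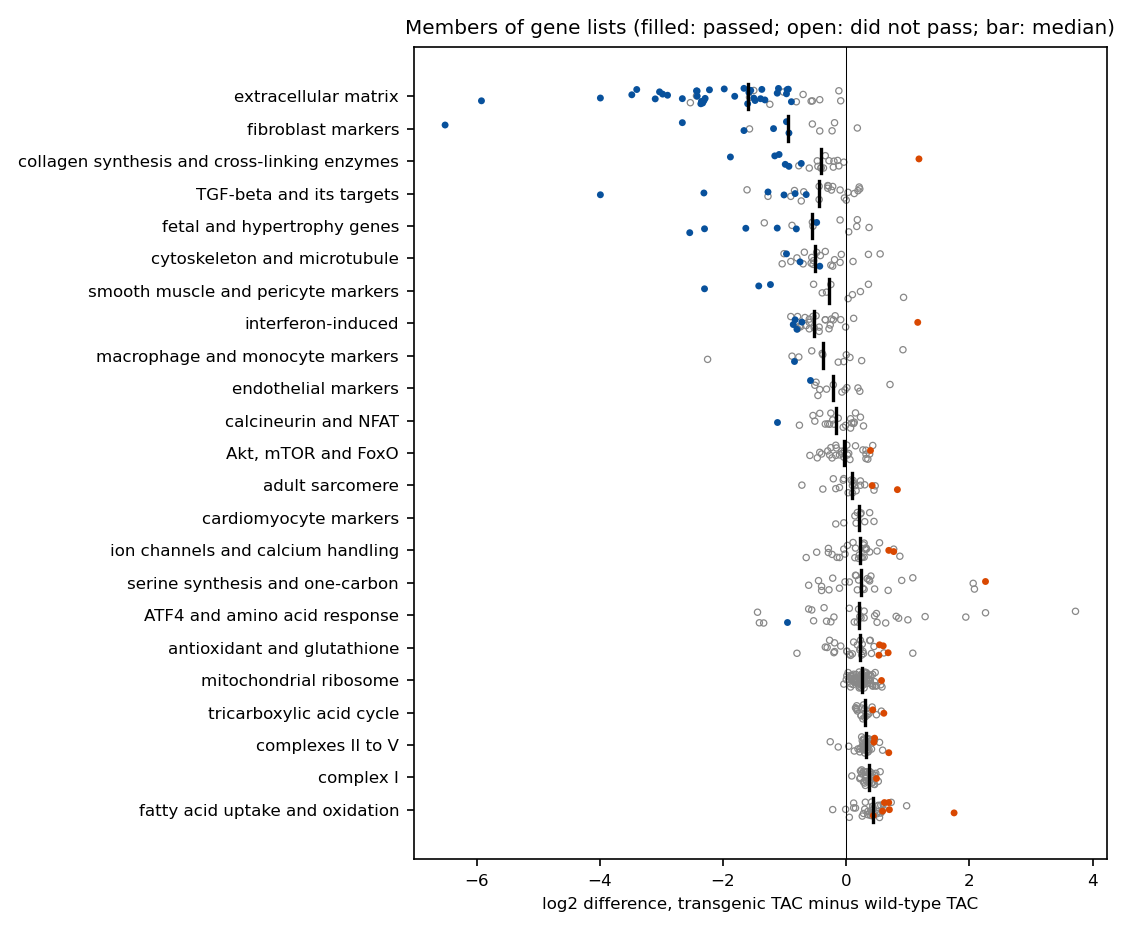
Log2 differences between transgenic and wild-type TAC hearts for the members of 23 gene lists, a point for each gene, with a black bar at the list's median. Filled points passed (blue lower, orange higher) and open points did not; the matrix list is centred at -1.59 and the fatty acid list at 0.43.

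Among the fibrillar collagens, Col1a1, a chain of collagen I, stood at 1.92, 2.92 and 2.64 on transgenic TAC arrays 1 to 3 and at 5.15, 4.51 and 5.79 on the wild-type ones. Every wild-type array was above every transgenic array, and the difference was -2.66 ± 0.35 (adjusted p = 0.006; -2.82 within slide 2). Col3a1, collagen III, stood at 2.83, 3.64 and 3.41 against 5.68, 5.25 and 6.22, a difference of -2.42 ± 0.31 (adjusted p = 0.0056). Col5a2, a collagen V chain that takes part in starting collagen I fibrils, differed by -2.98 ± 0.32 (adjusted p = 0.00259). Basement membrane chains were lower by less: Col4a2, of collagen IV, by -1.10 ± 0.12 and Col18a1, which gives rise to endostatin, by -1.58 ± 0.19 (adjusted p = 0.00324 and 0.00405), and the other probe of Col18a1 measured -1.29. In all, 14 of 15 measured collagen chains were lower (against 2.14% of all genes). With slide as a fixed block 0 of the 48 matrix genes, these chains among them, passed.

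Matricellular proteins sit in the matrix and signal to cells. Comp, a thrombospondin that binds collagen, stood at -1.70, -1.08 and -2.25 on the transgenic arrays and at 4.90, 2.12 and 5.72 on the wild-type arrays. The groups did not overlap, but wild-type array 2 lay far below the other wild-type arrays, and the difference was -5.92 ± 0.78 (adjusted p = 0.00597; -7.55 within slide 2, which does not hold wild-type array 2). Thbs4, a thrombospondin of the stressed heart, stood at 0.40, 1.07 and 0.78 against 4.41, 3.49 and 4.56 (-3.40 ± 0.29, adjusted p = 0.000493). Postn, periostin, which activated fibroblasts secrete, stood at 0.28, 2.14 and 1.20 against 4.27, 4.08 and 4.57. Its transgenic arrays were spread over a wider range than its wild-type arrays, and it differed by -3.10 ± 0.40 (adjusted p = 0.0056). Fmod, fibromodulin, a small leucine-rich proteoglycan that regulates collagen fibrils, stood at -2.94, -3.11 and -2.89 against 1.14, -1.60 and 1.96. Here too wild-type array 2 was the lowest of its group (-3.48 ± 0.74, adjusted p = 0.0359). The call of Fmod held in 4 of the 12 fits that left out an array. Over the matrix list wild-type array 2 was the lowest wild-type array for 32 of 48 genes, against 41% of all genes, and transgenic array 2 the highest transgenic array for 35 of 48.

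The latent TGF-beta binding proteins hold the growth factor TGF-beta, a main inducer of fibroblast activation, in the matrix. Ltbp2, a member that binds elastic fibres, stood at 0.14, 1.46 and -0.09 on the transgenic arrays and at 4.59, 3.48 and 5.40 on the wild-type arrays, a difference of -3.99 ± 0.50 (adjusted p = 0.0051). Of 27 measured genes of TGF-beta and its targets, 6 were lower (against 2.14% of all genes) and 0 were higher. The other 21 did not pass, and the median was -0.44. Between 1 and 3 were lower without any 1 of the transgenic TAC arrays, the wild-type sham arrays or wild-type TAC arrays 1 and 3. Ccn2, connective tissue growth factor, a target of the pathway, differed by -2.31 ± 0.38, the ligand Tgfb2 by -1.27 ± 0.27 and Ltbp4 by -0.65 ± 0.13 (adjusted p = 0.0166, 0.0372 and 0.0319). Of 21 enzymes that process or cross-link collagen 6 were lower (against 2.14% of all genes) and 1 was higher (against 1.92%). Their median was -0.41. Without transgenic TAC array 1 or wild-type TAC array 3 the lower ones were 2, and without wild-type TAC array 1 they were 3. Bmp1 and Adamts2, the proteases that trim the ends of procollagen, differed by -1.09 ± 0.12 and -1.88 ± 0.24 (adjusted p = 0.00324 and 0.0056). Other probes of Bmp1 measured -0.39 and 0.41 and that of Adamts2 -1.05, and none of these passed in a fit over all probes. The enzyme that was higher was P3h1, a prolyl hydroxylase of collagen named after its values were seen, at 1.18 ± 0.24, and it was as much higher after sham (1.22).

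Other genes, several of them of secreted proteins, were among the 15 largest decreases. Cthrc1, a collagen triple helix protein of activated fibroblasts, was well above background on all 3 wild-type arrays (-0.85, -3.42 and -0.37) and on 0 of the 3 transgenic arrays. It was therefore at least 22.1-fold lower; such a bound sets the wild-type mean against each transgenic array's lowest signal well above background. Ecrg4, the precursor of augurin, Frem1, a basement membrane protein, and Chil1, a chitinase-like secreted protein, were likewise at background on the transgenic arrays and were at least 45.6-fold, 11.8-fold and 9.20-fold lower. These 4 genes met the filter through the wild-type TAC arrays, where they were high, so the fit over the filtered genes does not test them fairly. Without the filter the adjusted p in limma was 0.0833 for Cthrc1, 0.0569 for Ecrg4, 0.0463 for Frem1 and 0.0248 for Chil1, and with normexp, which adds an offset to dim signals, their differences were -1.77, -2.54, -1.44 and -1.09 and did not pass. The secreted antagonists of Wnt signalling, Sfrp2 and Dkk3, differed by -3.52 ± 0.76 and -3.22 ± 0.60 (adjusted p = 0.0371 and 0.0235). Their calls held in 4 and 7 of the 12 fits that left out an array. Dio2, the deiodinase that activates thyroid hormone, stood at -1.92, -1.57 and -1.61 against 1.42, 1.21 and 2.42. Its groups were far apart for their spread (-3.38 ± 0.33, adjusted p = 0.00156). Ptx4 (-3.46 ± 0.72), C1qtnf3 (-3.11 ± 0.64) and Zfp185 (-3.09 ± 0.70) completed the 15, with adjusted p from 0.0332 to 0.0426. Their calls held in 4, 4 and 3 of the 12 fits that left out an array.

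**Figure D3:**
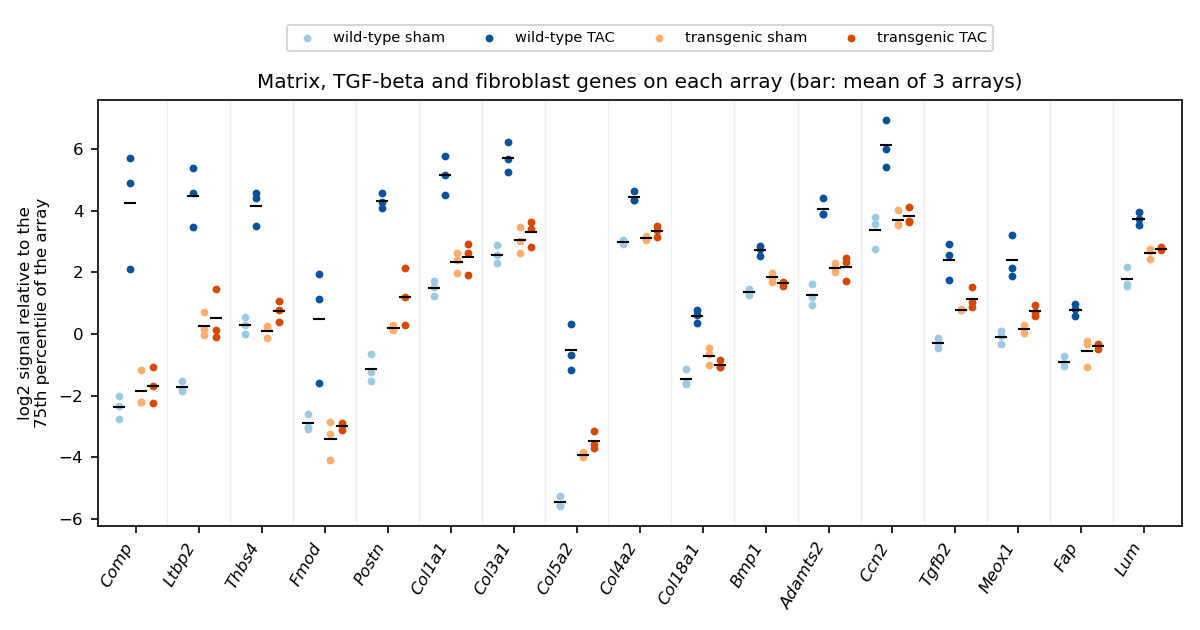
Log2 signal relative to the 75th percentile of the array for 17 matrix, TGF-beta and fibroblast genes, a point for each of the 12 arrays and a bar at each group's mean. Wild-type TAC arrays (dark blue) lie above transgenic TAC arrays (orange) for every gene shown, by 0.97 (Lum) to 5.92 (Comp) on average.

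In unbanded hearts the matrix genes lay the other way. After sham the matrix list had a median genotype difference of 0.68, with 39 of 48 genes above 0 and 1 past the threshold, against 1.42% of all genes. The test of the difference between surgeries, the interaction, passed for 1724 of 25321 genes (6.81%) and was negative for 817 of them (3.23%). The count was 325, 804, 600 and 448 without transgenic TAC array 1 or 3 or wild-type TAC array 1 or 3, 176, 622 and 162 without wild-type sham array 1, 2 or 3, and 763 without transgenic sham array 2. With normexp and with slide as a fixed block it was 0 in limma (2814 and 5569 at an unadjusted p under 0.05), so no interaction call given here held under those settings. It passed as negative for 35 of the 48 matrix genes and had a median of -2.34. For Postn the genotype difference after TAC was 4.43 below that after sham (-4.43, adjusted p = 0.0117), and for Col1a1 the value was -3.50 (adjusted p = 0.0139). The interaction shares the TAC arrays with the comparison above and is not separate support for it.

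Fibroblast markers moved with the matrix genes. Of 12 measured, 6 were lower (against 2.14% of all genes) and 0 were higher, with a median of -0.95. Of the 12, Col1a1, Lum, Dcn and Mfap5 are also in the matrix list. The 6 include Cthrc1, which met the filter through the wild-type TAC arrays and is not tested fairly. Without the filter its adjusted p in limma was 0.0833. Without any 1 of the transgenic TAC arrays 1 marker was lower, and without wild-type TAC array 3, 2 were. Meox1, a transcription factor of activated fibroblasts, stood at 0.60, 0.94 and 0.70 against 2.14, 1.87 and 3.21 (-1.66 ± 0.29, adjusted p = 0.0214), and Fap, a surface protease of such cells, differed by -1.18 ± 0.21 (adjusted p = 0.022). Lum, a proteoglycan of fibroblasts in general, differed by -0.97 ± 0.18 (adjusted p = 0.0236). Of the markers that did not pass, Pdgfra differed by -0.43 ± 0.22, Tcf21 by -0.19 ± 0.29 and Dcn by -0.55 ± 0.17, with adjusted p = 0.298, 0.770 and 0.0941; these 3 were named after their values were seen. The summed linear signal of the fibroblast list, in multiples of the 75th percentile, was 243 to 277 on the transgenic TAC arrays and 364 to 423 on the wild-type ones.

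Of 12 smooth muscle and pericyte markers 3 were lower (against 2.14% of all genes), the contractile genes Cnn1 (-2.30 ± 0.42), Tagln (-1.42 ± 0.28) and Myh11 (-1.23 ± 0.29), with summed signals of 65.3 to 87.7 and 66.1 to 76.8. The count was 0, 1 and 1 without transgenic TAC array 1, 2 or 3 and 0 without wild-type TAC array 1 or 3, and the call of Myh11 held in 2 of 12 such fits. Of 13 macrophage and monocyte markers 1, Trem2, a lipid receptor, was lower (-0.84 ± 0.16, against 2.14% of all genes), and the sums were 47.5 to 56.5 and 56.9 to 69.6. Of 13 endothelial markers 1, Emcn, was lower (against 2.14% of all genes), with sums of 160 to 235 and 193 to 248. Of 6 lymphatic markers 1, Pdpn, was lower (against 2.14%), with sums of 10.2 to 16.8 and 18.3 to 62.4. The calls of Trem2, Emcn and Pdpn held in 7, 4 and 1 of the 12 fits that left out an array. The 10 cardiomyocyte markers had a median of 0.21, 0 passed, and their sums were 2350 to 2880 and 2130 to 2510. For T and NK cells 0 of 10 markers passed, for B cells 0 of 7, for granulocytes 0 of 7, for mast cells 0 of 5, for adipocytes 0 of 6, for skeletal muscle 0 of 8 and for erythroid cells 0 of 5. Single members passed in the mesothelial (Krt18, -2.33), Schwann cell (Prnp, -0.46) and atrial (Stard10, 1.38) lists. These lists had 6, 8 and 8 measured markers, and 4.06% of all genes passed in either direction. The 3 calls held in 3, 4 and 4 of the 12 fits that left out an array. Summed mesothelial signals were low on all TAC arrays, 0.885 to 1.33 on the transgenic and 1.59 to 3.96 on the wild-type ones. No measured marker was at background on all 6 TAC arrays; Cd68 and Ly6c2 of macrophages and Myh1 and Myh4 of skeletal muscle were among those not measured. As for the labelled tissue, the heart muscle genes Tnnt2 and Myh6 stood at 8.05 and 8.16 or higher on all 12 arrays. The part of these markers in the matrix result was not tested.

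Of the genes of cardiac stress, some fetal and hypertrophy genes were lower and no gene of Z-disc and stress signalling passed. In the latter list 0 of 23 passed in limma, with a median of -0.02 that lay between -0.22 and 0.04 under the alternatives. Of 15 fetal and hypertrophy genes 6 were lower (against 2.14% of all genes), 0 were higher and 9 did not pass, with a median of -0.55. The count was 3, 2 and 3 without transgenic TAC array 1, 2 or 3, and 3 and 1 without wild-type TAC array 1 or 3. Nppb, the B-type natriuretic peptide released by stretched ventricle, stood at 5.70, 4.16 and 3.91 on the transgenic arrays and at 6.97, 6.89 and 7.51 on the wild-type arrays. All wild-type arrays were above the transgenic arrays, of which array 1 was the highest, and the difference was -2.54 ± 0.40 (adjusted p = 0.014). The call was lost without transgenic TAC array 2 or wild-type TAC array 3, with normexp and in a fit of the 6 TAC arrays alone. Ankrd1, a titin-associated stress protein, stood at 6.15, 5.98 and 5.39 against 7.52, 7.38 and 7.51 (-1.63 ± 0.22, adjusted p = 0.00615). Nppa, the A-type peptide, stood at 6.49, 8.11 and 7.22 against 8.70, 8.44 and 8.66. Its transgenic arrays ranged widely, and its difference of -1.33 ± 0.35 did not pass (adjusted p = 0.0625).

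The myosin switch of the stressed heart did not separate the banded groups. Myh7, the slow fetal myosin heavy chain, stood at 8.06, 8.16 and 8.08 on the transgenic arrays and at 8.50, 7.25 and 8.43 on the wild-type arrays. The groups overlapped, and the difference of 0.04 ± 0.36 did not pass (adjusted p = 0.972). In sham hearts Myh7 was higher with the transgene by 3.71 (adjusted p = 0.0014), and the interaction was -3.68 (adjusted p = 0.0134). Acta1, skeletal actin, measured -0.54 ± 0.72, Myh6, the adult myosin heavy chain, 0.23 ± 0.11, and Atp2a2, the SERCA2 calcium pump, 0.31 ± 0.13, and none of them passed (adjusted p = 0.729, 0.234 and 0.195). Of 22 adult sarcomere genes 2 were higher (against 1.92% of all genes), among them Smyd1, a myosin chaperone, by 0.83 ± 0.14. Of 30 genes of ion channels and calcium handling 2 were higher (against 1.92% of all genes). These were the potassium channel Kcnj2 (0.69 ± 0.12) and the pacemaker channel Hcn2 (0.77 ± 0.16). The other probes of Smyd1 and Hcn2 measured 0.32 and 0.38 and did not pass.

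The calcineurin pathway itself was represented by 22 measured genes, of which 1 was lower (against 2.14% of all genes) and 0 were higher. Their median was -0.17. Ppp3cb, the gene of the A beta subunit, had 1 probe, which stood at 1.55, 1.47 and 1.52 on the transgenic TAC arrays and at 1.41, 1.33 and 1.45 on the wild-type arrays. This small difference did not pass (0.12 ± 0.09, adjusted p = 0.505); whether the probe lies in the overexpressed variant is not known here, so it does not check the labels. The gene that was lower was Rcan1, the calcineurin inhibitor induced through NFAT. Its level was 2.35, 1.94 and 2.09 on the transgenic arrays and 2.91, 3.61 and 3.22 on the wild-type arrays. The groups did not overlap, and Rcan1 was 2.18-fold lower (-1.12 ± 0.19, adjusted p = 0.0185; -0.98 within slide 2), a call lost without transgenic TAC array 2 or 3 or wild-type TAC array 3, with normexp and in a fit of the 6 TAC arrays alone. Cabin1, another calcineurin inhibitor, measured -0.30 ± 0.10 and did not pass (adjusted p = 0.105).

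Rcan1 has a pair of promoters, of which the internal one is the known calcineurin-responsive promoter. Its 250 bases upstream of the start, from RefSeq on GRCm38.p6 at chr16:92400079-92400328, minus strand, are shown because Rcan1 is the pathway member that passed; capitals mark matches, on either strand, to TGGAAA, the core letters of NFAT sites.
Rcan1 internal promoter: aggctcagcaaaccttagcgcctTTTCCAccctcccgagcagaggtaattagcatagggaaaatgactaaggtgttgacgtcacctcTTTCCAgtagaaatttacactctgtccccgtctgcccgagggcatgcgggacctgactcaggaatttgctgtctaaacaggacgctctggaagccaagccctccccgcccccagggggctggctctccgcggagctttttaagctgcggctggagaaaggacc
The first bases of the 2 matches lay 227 and 163 bases before the start, both on the opposite strand, and the upstream Rcan1 promoter held 0. Of 27025 mouse promoter windows of this length 18.7% held the letters at least once, so a match is a description of the sequence and not of binding.

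Genes of mitochondrial energy supply lay slightly higher in banded transgenic hearts. In 5 lists, of fatty acid oxidation, complex I, complexes II to V, the tricarboxylic acid cycle and the mitochondrial ribosome, 209 of 215 genes (97.2%) lay above 0, against 52% of all genes. Their median was 0.31 and 1 exceeded 2-fold; 13 passed as higher (6.05%, against 1.92% of all genes) and 0 as lower. The 13 became 0, 2 and 1 without transgenic TAC array 1, 2 or 3, 0 without wild-type TAC array 1 or 3, 2 without wild-type sham array 1, 4 without wild-type sham array 2 or 3, and 0 with slide as a fixed block, while the median of each of the 5 lists stayed above 0 under every alternative run. For 130 of the 215 (60.5%, against 17.5% of all genes) the transgenic arrays lay above the wild-type arrays. These genes sit on the same arrays and vary together, so the counts do not come from separate observations.

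Fatty acid genes had the largest of these medians, 0.43, with 6 of 38 higher (against 1.92% of all genes), 0 lower and 32 not past the threshold. For 29 of the 38 the transgenic arrays lay above the wild-type arrays (against 17.5% of all genes). Ech1, an auxiliary enzyme of the oxidation of unsaturated fatty acids, stood at 6.53, 6.13 and 6.37 on the transgenic arrays and at 5.71, 5.71 and 5.50 on the wild-type arrays. The groups were apart (0.70 ± 0.13, adjusted p = 0.0222), and Eci1, another such enzyme, differed by 0.69 ± 0.14 (adjusted p = 0.0313). Acadl, the long-chain acyl-CoA dehydrogenase, differed by 0.44 ± 0.09 and Crat, carnitine acetyltransferase, by 0.62 ± 0.13 (adjusted p = 0.0319 and 0.0382). The member with the largest difference, named after its values were seen, was Acot1, an acyl-CoA thioesterase, at 1.75 ± 0.38 (adjusted p = 0.0391).

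In the respiratory chain 1 of 37 complex I genes was higher (against 1.92% of all genes), Ndufc2 (0.48 ± 0.10, adjusted p = 0.0358), and the median was 0.37. In complexes II to V 3 of 43 were higher (against 1.92% of all genes), with a median of 0.32. These were the ATP synthase subunits Atp5c1 (0.69 ± 0.12) and Atp5j (0.45 ± 0.10) and cytochrome c1, Cyc1 (0.46 ± 0.10), with adjusted p from 0.0216 to 0.0407. Of 21 genes of the tricarboxylic acid cycle 2 were higher (against 1.92% of all genes), the isocitrate dehydrogenase subunits Idh3a (0.43 ± 0.08) and Idh3b (0.61 ± 0.14), with a median of 0.30. Of 76 mitochondrial ribosomal proteins 1 was higher (against 1.92% of all genes), Mrps10 (0.56 ± 0.12), with a median of 0.26. Of the regulators of these genes, the estrogen-related receptors Esrrg and Esrrb were higher (0.54 ± 0.11 and 0.55, adjusted p = 0.0351 and 0.0377). Each of these 2 calls held in 3 of the 12 fits that left out an array. Esrra, close to them in size (0.50 ± 0.14), and the coactivator Ppargc1a (0.41 ± 0.36) did not pass (adjusted p = 0.0709 and 0.566). Of 32 antioxidant genes 4 were higher (against 1.92% of all genes), the glutathione transferases Mgst1, Gstp1, Gstm1 and Gsta4, by 0.53 to 0.68. That count was 0 without any 1 of the transgenic TAC arrays or wild-type TAC array 1 or 3, and 1, 2 and 1 without wild-type sham array 1, 2 or 3.

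In sham hearts the same 5 lists lay the other way, with a median genotype difference of -0.35 and 201 of 215 genes below 0. The interaction passed for 103 of the 215, against 3.58% of all genes with a positive interaction. The fatty acid list measured 0.43 after TAC and -0.57 after sham, and complex I 0.37 and -0.37.

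Serine synthesis, folate one-carbon and ATF4 genes belong to a program that answers mitochondrial stress, and few of them passed in banded hearts. Of 26 serine and one-carbon genes 1 was higher (against 1.92% of all genes), 0 were lower and 25 did not pass. Their median was 0.24. Aldh1l2, the mitochondrial formyltetrahydrofolate dehydrogenase, stood at -1.54, -0.59 and -1.04 against -3.08, -4.06 and -2.77 (2.25 ± 0.36, adjusted p = 0.0148). Phgdh, the first enzyme of serine synthesis, stood at -0.02, 1.78 and 0.99 against -1.01, -1.78 and -0.69. Its arrays did not overlap but were spread in both groups, and 2.08 ± 0.60 did not pass (adjusted p = 0.0825); its other probe measured 2.04. Mthfd2 measured 2.06 ± 0.72, Psat1 0.90 ± 0.64 and Shmt2 0.18 ± 0.17, which did not pass either (adjusted p = 0.129, 0.452 and 0.577). For Mthfd2 and Phgdh the difference after sham was 6.17 and 4.65 (adjusted p = 0.00412 and 0.00709), and the interaction passed for Mthfd2 (-4.10, adjusted p = 0.043) and not for Phgdh (-2.57, adjusted p = 0.0984).

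Of 30 genes of the ATF4 and amino acid response 0 were higher and 1 was lower (against 2.14% of all genes). The median was 0.21. The lower gene was Slc1a5, a glutamine transporter, at -0.96 ± 0.18 (adjusted p = 0.0232). Atf4 itself measured 0.22 ± 0.47, Asns, asparagine synthetase, 2.26 ± 0.67 and the stress hormone Gdf15 -1.34 ± 0.76, and none passed (adjusted p = 0.844, 0.0861 and 0.345). Fgf21, a hormone of metabolic stress, stood at -3.37, -1.94 and -3.36 on the transgenic arrays and at -5.99, -7.29 and -6.56 on the wild-type arrays, of which 1 was well above background. The groups did not overlap, and the fitted difference of 3.72 ± 0.93, of no exact size against a group mostly at background, did not pass (adjusted p = 0.0555; 0.45 to 4.04 over the alternatives, lowest with normexp). Its 250 upstream bases, from RefSeq on GRCm38.p6 at chr7:45615491-45615740, minus strand, are shown because Fgf21 is a known ATF4 target with the largest difference of this list; capitals mark TGATGCA, the core of the C/EBP-ATF response element, and TGGAAA, on either strand.
Fgf21 promoter: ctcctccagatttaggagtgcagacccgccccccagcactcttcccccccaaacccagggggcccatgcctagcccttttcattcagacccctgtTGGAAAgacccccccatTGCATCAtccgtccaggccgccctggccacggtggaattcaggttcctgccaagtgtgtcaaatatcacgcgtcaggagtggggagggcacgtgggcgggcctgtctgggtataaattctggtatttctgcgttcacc
The C/EBP-ATF letters began 138 bases before the start on the opposite strand and the NFAT letters 155 bases before it on the same strand. Of all 27025 windows 2.73% held TGATGCA; of the 24 members of the list with a promoter in the table, 4 did.

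**Figure D4:**
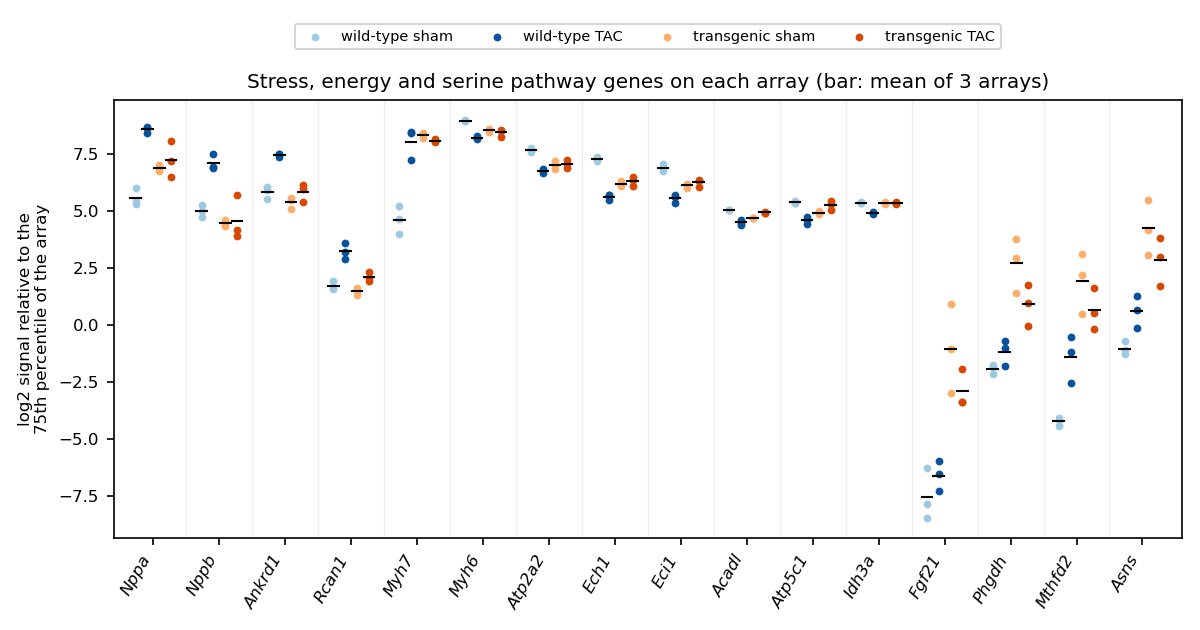
Log2 signal relative to the 75th percentile of the array for stress, energy and serine pathway genes, a point for each of the 12 arrays and a bar at each group's mean. Nppb, Ankrd1 and Rcan1 are lower on the transgenic than on the wild-type TAC arrays, Ech1 is higher (0.70), and Fgf21, Phgdh, Mthfd2 and Asns are higher on average with a wide spread.

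Among signalling and immune genes few passed singly. Of 29 genes of Akt, mTOR and FoxO signalling 1 was higher (against 1.92% of all genes) and 0 were lower. The gene that was higher was Akt2 (0.39 ± 0.09, adjusted p = 0.0458), whose call held in 1 of the 12 fits that left out an array. The list had a median of -0.04, which was 0.02 under another setting. Akt1 measured -0.07 ± 0.10 and Mtor 0.15 ± 0.15 (adjusted p = 0.766 and 0.626). Of 30 interferon-induced genes 4 were lower (against 2.14% of all genes) and 1 was higher (against 1.92%), the guanylate-binding protein Gbp6 (1.16 ± 0.24). The call of Gbp6 held in 3 of the 12 fits that left out an array. Among the 4 were Stat2, a signal transducer of type I interferon (-0.72 ± 0.11), Oasl2 (-0.80 ± 0.15) and Ifit2 (-0.83 ± 0.17). The difference lay below 0 for 28 of the 30, and for 12010 of all 25321 genes. For 19 of the 30 the transgenic arrays lay below the wild-type arrays (against 14.9% of all genes), and for 1 above (against 17.5%). The median was -0.53, and -0.26 within slide 2, and 0 passed without transgenic TAC array 1. Of 27 cytokine genes 2 were lower (against 2.14% of all genes), Cx3cl1 (-1.37 ± 0.29) and Il1r1 (-0.76 ± 0.18). Each of these 2 calls held in 4 of the 12 fits that left out an array. The chemokine Cxcl13, which attracts B cells, was higher by at least 4.32-fold, at background on the wild-type TAC arrays. It met the filter through the transgenic TAC arrays; without the filter its adjusted p in limma was 0.0342, and with normexp its difference was 0.11 and did not pass (adjusted p = 0.938). Of 24 cytoskeletal genes 3 were lower (against 2.14% of all genes), with a median of -0.50. These were Flna, filamin A (-0.75 ± 0.14), Tuba1c, an alpha tubulin (-0.97 ± 0.20), and Tln1, talin (-0.43 ± 0.10), whose other probe measured -0.15. For 13 of the 24 the transgenic arrays lay below the wild-type arrays (against 14.9% of all genes), and for 1 above (against 17.5%). With 1 array left out 0 to 6 of the 24 passed, and the call of Tln1 held in 4 of the 12 such fits. In 45 cytosolic ribosomal proteins 0 passed, with a median of 0.11 that turned to -0.04 with quantile normalization.

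Most of the largest increases were seen after sham too. Of the 15 largest named increases, 11 were also past the threshold in sham hearts, in the same direction. The 11 include Tmem72, which met the filter through the transgenic arrays and is not tested fairly. In either direction 1.42% of all genes passed in sham hearts. Over all genes 62 of the 485 were higher after both surgeries. The interaction passed for 0 of the 62 (against 6.81% of all genes), and for 61 the 2 differences lay within 1 on the log2 scale. Choosing genes that passed after both surgeries in the same direction favours similar differences. These counts therefore do not test whether the 2 differences were alike. Of the 11 genes that passed with slide as a fixed block, 10 were among the 62.

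Dlg4, the synaptic scaffold protein PSD-95, stood at 2.08, 2.48 and 2.14 on the transgenic TAC arrays and at -3.42, -3.80 and -3.12 on the wild-type TAC arrays. Each group was tight and they were far apart: the difference was 5.68 ± 0.19 after TAC (adjusted p = 9.21e-07) and 6.09 after sham, with an interaction of -0.42 (adjusted p = 0.378). Gna15, a G protein alpha subunit of blood cells, differed by 5.06 ± 0.17 after TAC and 4.77 after sham, Hspb9, a small heat shock protein of testis, by 5.14 ± 0.28 and 4.79, and Pced1b by 4.83 ± 0.19 and 4.82. Tmem72, a membrane protein, was at background on all wild-type TAC arrays (-7.44, -7.34 and -7.49) and stood at -0.82, -0.55 and -0.94 on the transgenic ones. It was at least 41.6-fold higher (the fitted difference with normexp was 1.95 and did not pass), and its fitted difference of 6.66 after TAC lay 0.03 from that after sham. Tmem72 met the filter through the transgenic arrays, where it was high, so neither fit over the filtered genes tests it fairly. Without the filter its adjusted p in limma was 7.7e-05 after TAC. At background in both wild-type groups, it has no exact size after either surgery. Ren1, renin, the protease that starts the angiotensin cascade, stood at 0.56, 1.14 and 0.87 against -2.25, -2.24 and -2.78. It was 9.72-fold higher (3.28 ± 0.38, adjusted p = 0.00351) and 3.26 higher on the log2 scale after sham. Sbk1, a kinase, differed by 2.94 ± 0.23, with 2.18 after sham.

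For some of these genes the probes disagreed. Mkrn1, a ubiquitin ligase, stood at 3.19, 3.68 and 3.43 against 0.55, 0.39 and 0.58 on its tested probe (2.93 ± 0.17, adjusted p = 3.22e-05), while its other probe, well above background on all 6 TAC arrays, measured 0.08. Tdg, thymine DNA glycosylase, differed by 3.28 ± 0.17 on its tested probe and by -0.43 and -0.63 on its others, which did not pass. Plppr4, a membrane protein of neurons, differed by 4.73 ± 0.25 on its tested probe and by -1.30 on another that was well above background on 1 array. Aadacl3 differed by 2.90 ± 0.41 on its tested probe, and its other probe, at background on all 6 TAC arrays, measured -0.51. The other 7 of the 11 genes, among them Dlg4, Gna15 and Ren1, had 1 named probe each. On the side of lower genes, 6 were lower after both surgeries; among them, named after their values were seen, were Clu, clusterin (-0.98 after TAC and -1.01 after sham), Hbegf, an EGF family growth factor (-1.44 and -1.11), and Lama2, a laminin of the muscle basement membrane (-1.39 and -0.59, interaction -0.81 with adjusted p = 0.0256).

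**Figure D5:**
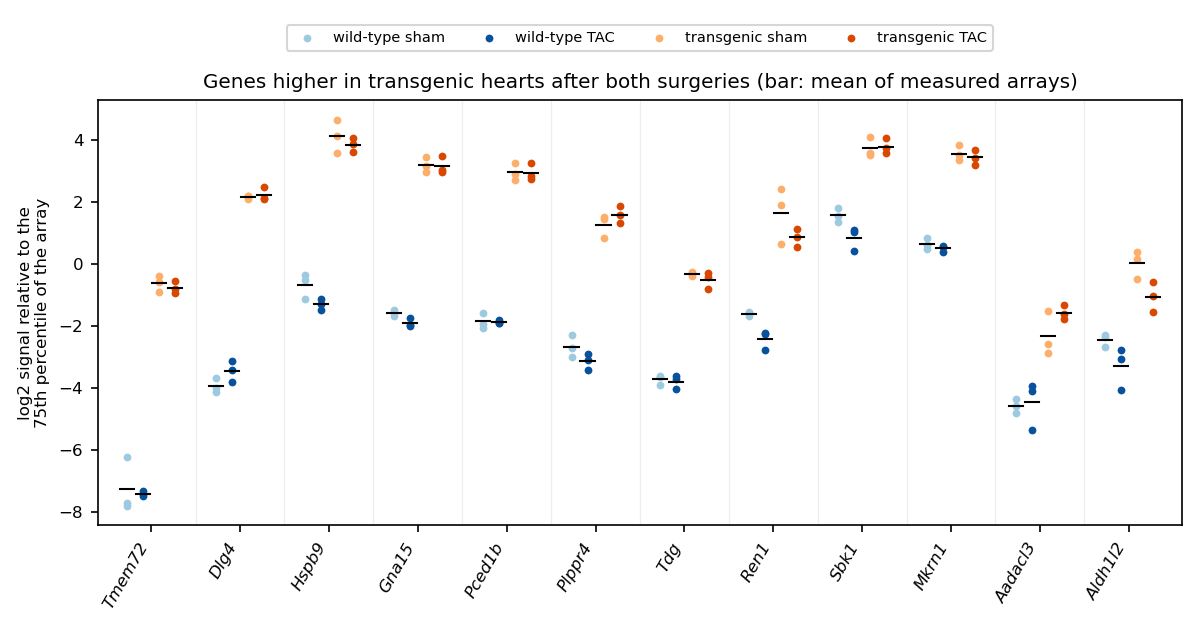
Log2 signal relative to the 75th percentile of the array for 12 genes higher in transgenic hearts after both surgeries, a point for each array and a bar at each group's mean. For each gene the measured transgenic sham and transgenic TAC arrays lie above both wild-type groups, as for Dlg4, where the difference was 5.68 after TAC and 6.09 after sham. For Aldh1l2 the transgenic TAC arrays lie below the transgenic sham arrays.

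The remaining large increases did not pass after sham. Cyp2b10, a cytochrome P450 of foreign compounds, stood at 2.13, 0.93 and 2.22 on the transgenic TAC arrays and at -3.69, -2.01 and -3.70 on the wild-type ones, a difference of 4.89 ± 0.77 (adjusted p = 0.014). It measured -0.30 after sham, and the interaction was 5.19 (adjusted p = 0.0282). Retnla, a resistin-like protein of alternatively activated macrophages, stood at 0.58, -0.54 and 0.14 against -2.47, -2.67 and -4.76. Wild-type array 3 was far below the others of its group (3.36 ± 0.79, adjusted p = 0.047, interaction 4.54 with adjusted p = 0.0421), and the call held in 2 of the 12 fits that left out an array. Klk1b22, a kallikrein, differed by 3.84 ± 0.62 (adjusted p = 0.0144), and its interaction of 2.51 did not pass (adjusted p = 0.112). Single genes from other lists were higher as well: Tbx5, a cardiac transcription factor, by 1.13 ± 0.20, the complement component C6 by 2.61 ± 0.47, and Map1lc3a, of the autophagosome, by 0.60 ± 0.09 (adjusted p = 0.0222, 0.0221 and 0.0116).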

How the data were processed

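RNA from left ventricle was measured on 12 single-colour Agilent mouse arrays, 3 in each of 4 groups. The deposited intensity values were made with Feature Extraction 10.7.3.1, per the file headers: background was subtracted and trends across each array were removed, with no scaling between arrays. Per the submitters' processing notes RMA was used, for a step that is not stated; the deposited log2 table by the authors is centred on each probe's median and served as an alternative. Here log2 of the processed signal minus each array's 75th percentile was used, control and outlier spots were left out, spots of a probe were averaged, and the brightest probe stood for a gene if well above background on at least 3 arrays. Of 39429 probes 26424 carried a symbol. Groups were fitted with limma 3.58.1 in R 4.3.3 (lmFit and eBayes, Benjamini-Hochberg adjustment), with TAC, sham and interaction contrasts, and the code was tested on simulated data. The number of arrays limits the precision. Alternatives covered background correction, scaling, filters, probes, variance, slide, replicate number and leaving out arrays. The gene set and the lists were chosen with earlier results of these data known. Named genes were the 15 largest past the threshold in each direction whose arrays did not overlap, leaving out predicted and clone names, up to 4 members of each list with the smallest p, and a core set of pathway and heart genes whatever their test; exceptions are marked. The result of 1 gene is not reported here.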

Additional observations from a re-analysis of the deposited data

Results flagged for a closer look

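By limma's interaction test, the genotype difference after TAC differed from that after sham for 1724 of 25321 genes (6.81%). Among them were 19 of the 51 genes looked at singly. The 51 were the core set and the named genes with the largest differences after TAC in each direction. Those large differences come from TAC arrays that also enter the interaction, which favours a high share among the 51. The share is therefore not a test of the 51 as a group. Matrix and secreted genes had negative values on the log2 scale: Chil1 -6.82, Comp -6.43, Frem1 -6.27, Ltbp2 -5.96, Postn -4.43, Dkk3 -4.42, C1qtnf3 -3.97, Col1a1 -3.50, Thbs4 -3.23 and Col3a1 -2.90. Chil1 and Frem1 were at background in some groups, so their values give no exact size. They met the filter through the wild-type TAC arrays, where they were high, so the interaction fit does not test them fairly. C1qtnf3 was well above background on 1 array in each sham group, so its value gives no exact size either. Stress genes were also negative, with Gdf15 at -4.37, Mthfd2 at -4.10, Myh7 at -3.68 and Nppa at -2.62, as was the deiodinase Dio2 at -3.84. Positive values were found for Myh6 (0.63), Atp2a2 (0.97), Retnla (4.54) and Cyp2b10 (5.19). With 3 arrays in a group, no array was tested as standing apart from its group.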

How the results depend on the processing

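The number of genes past the threshold after TAC (1027) and the number for the interaction (1724) depended strongly on the processing, and the causes were not tested. Of 240 named genes 0 changed sign under an alternative where they passed in either fit; Myh7, Acta1 and Atf4 were among those that did not pass and changed sign. Normexp gave 42 and 0 (2814 at an unadjusted p under 0.05 in limma), median scaling 457 and 619, no filter 356 and 522, probes well above background on all 6 TAC arrays 1672 and 2594, on all 12 arrays 2458 and 3169, and trended robust variance 2186 and 2897. Quantile normalization moved the interaction to 902, normexp with quantile normalization moved the TAC count to 1743, array weights to 3060 and the fit of the 6 TAC arrays alone to 89, of which 79.8% were higher. Slide as a fixed block gave 11 and 0 (5569 at an unadjusted p under 0.05). Leaving out 1 array gave 174 to 1326 and 162 to 2185. The median of the fetal genes (-0.55) was -0.42 with normexp, -0.74 with quantile normalization, -0.65 with both, -0.81 with probes above background on all 12 arrays, -0.76 with array weights, -0.43 with slide as a block and -0.87 to -0.43 with 1 array left out. That of complexes II to V (0.32) was 0.19 with quantile normalization and 0.15 with normexp added. With the replicate number as a block 405 genes passed after TAC and 674 for the interaction; same-numbered TAC arrays correlated by 0.28, 0.15 and -0.10, so the numbers do not pair them. Dim probes limit what can be said of genes at background.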
